A study of Mus musculus with 24 samples.

Results

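The 31 genes described here are liver X receptors (LXRs) and their retinoid X receptor (RXR) partners, and LXR targets with lipoprotein and cholesterol transport genes. The rest are regulators of sterol sensing and enzymes of cholesterol synthesis. The 31 genes were chosen by name as the symbols of probes on the array and make up 31 of the 20983 genes tested. The receptors were Nr1h2, Nr1h3, Rxra, Rxrb and Rxrg. The LXR targets, lipoprotein genes and cholesterol transport genes were Abca1, Abcg1, Apoe, Apoa1, Apoc1, Pltp, Mylip, Npc1 and Stard4. Sterol control was represented by Srebf1, Srebf2, Insig1 and Insig2, and synthesis by Hmgcs1, Mvk, Mvd, Idi1, Fdps, Fdft1, Sqle, Lss, Cyp51, Sc4mol (now Msmo1 in RefSeq), Nsdhl, Hsd17b7 and Dhcr7.

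LXRs are nuclear receptors for oxysterols that bind DNA as partners of RXRs and turn on genes for cholesterol efflux, lipoprotein assembly and degradation of the LDL receptor. When sterols are low, SREBP2 leaves the endoplasmic reticulum and turns on the enzymes that make cholesterol from acetyl-CoA, while INSIG proteins hold it back when sterols are plentiful. Growing cells need cholesterol for new membranes, and mammary epithelium also uses these pathways to make milk fat.

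RNA was measured in 24 mammary tumors of female BALB/c mice, all given the carcinogen 7,12-dimethylbenz[a]anthracene (DMBA), which induces mammary tumors. Mice ate a low fat diet (LFD), a diet rich in animal fat of the saturated kind (HFD), or were moved from one diet to the other (LFD-HFD and HFD-LFD), and the labels call each tumor early or late. There were 5 LFD Late, 3 HFD Early, 6 HFD Late, 4 LFD-HFD Late, 3 HFD-LFD Early and 3 HFD-LFD Late tumors, 6 early and 18 late in all, and no early tumor of the LFD or LFD-HFD groups was analysed here. Each tumor was hybridized on 1 Agilent array against Universal Mouse Reference RNA, a pool from 11 mouse cell lines, so every value is a log2 ratio of tumor over that pool and not a level against normal mammary gland. The labels do not say that each tumor came from a separate mouse, so p-values measure only the spread between these samples, which may be technical.

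The sign of every ratio follows the GEO labels, which put tumor RNA in Cy5, and opposes the study's methods, which put the reference in Cy5. On 17 arrays the median SD of a probe between arrays was 0.605 log2 units in Cy5 and 0.256 in Cy3, the channel with the lower spread being the one that held the same RNA on every array. The 24 arrays lay on 7 slides read in 3 scan sessions, and the 3 HFD Early tumors filled a slide of their own in session 1, so slide and group cannot be told apart for them. On 2 slides a band of rows was dim in Cy5, and those spots were left missing, which is why some genes have fewer than 24 values. In the tumor channel, 29 of the 31 genes stood well above background on every array, and the other two were Stard4 on 21 arrays and Srebf2 on 22. Among markers of the labeled tissue, all 9 luminal epithelial genes were above background on some arrays.

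The first comparison asked how these genes differed between early and late tumors over all diets. Of the 31 genes, 7 passed an adjusted p of 0.05 (limma over all genes), against 16.6% of all 20978 genes tested. Mylip and Srebf2 were higher in early tumors, where 6.53% of all genes were called higher, and Rxra, Rxrg, Apoc1, Srebf1 and Insig2 were lower, where 10.1% were called lower. The median difference of the 31 genes was 0.22 and that of all genes was -0.06. The share called was thus near that of the whole array, and 15 of the 31 had an unadjusted p under 0.05 against 32.6% of all genes. In 1.12% of genes the early and late tumors did not overlap at all, and none of the 31 was among them.

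**Figure D1:**
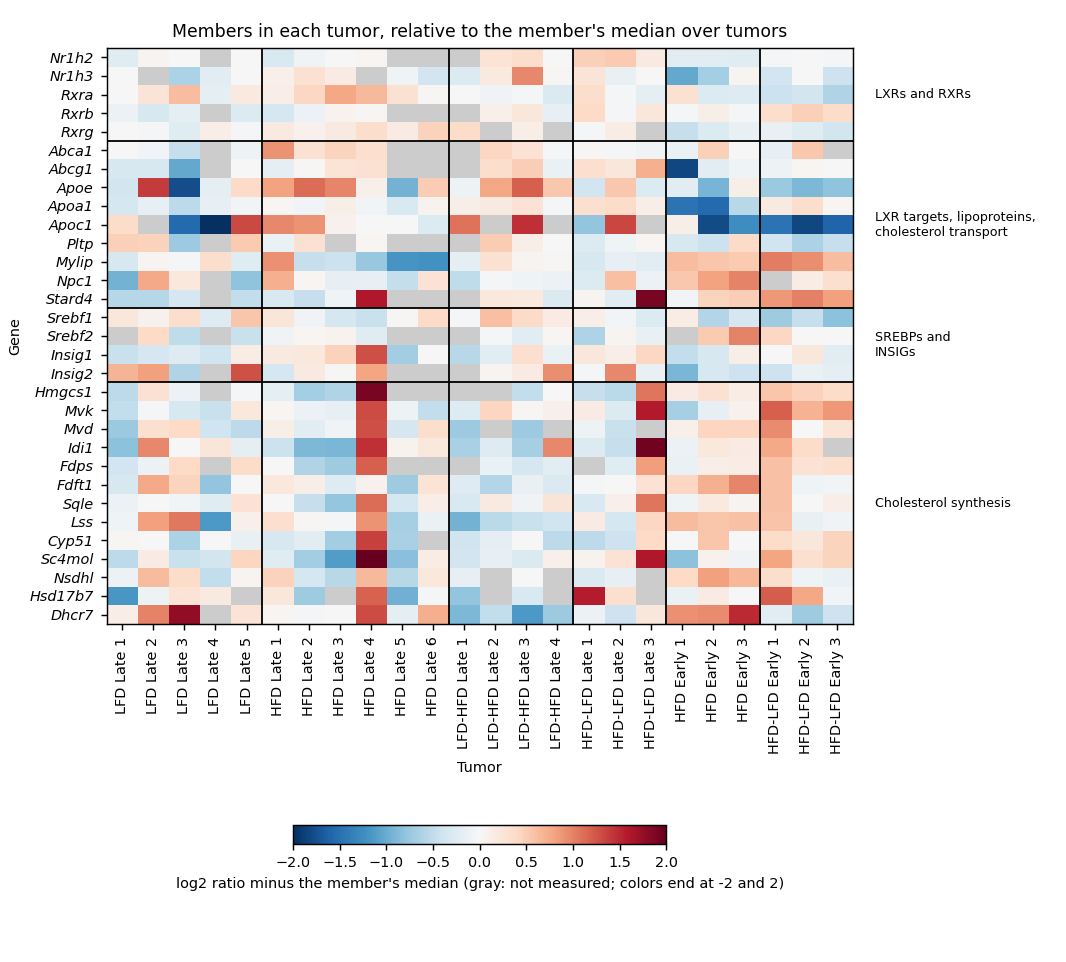
Heat map of the 31 genes (rows, grouped by role) in the 24 tumors (columns, grouped by diet and onset). Color gives each log2 ratio relative to the gene's median over tumors, and blank cells are spots left missing. HFD Late 4 stands out with high values over most of the synthesis genes.

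**Figure D2:**
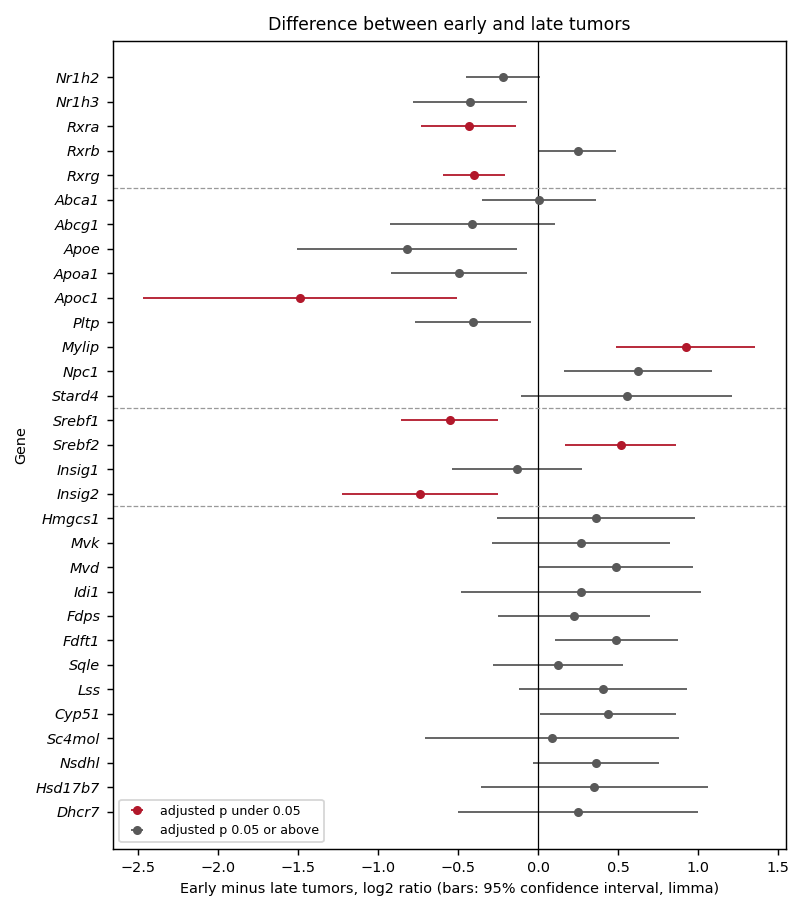
Early minus late difference of each gene in log2 units with its 95% confidence interval from limma, marked by whether it passed an adjusted p of 0.05. All 13 synthesis genes lie above 0 without passing, and the 7 genes that passed lie among the other roles.

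Of the 5 receptor genes, 2 were called, against 16.6% of all genes, and both were lower in early tumors. The median difference of the 5 was -0.40, and 1 of them, Rxrb, was above 0. Rxrg, an RXR restricted to few tissues, is measured by a probe at chr1:169569496-169569555 (mm9). Its log2 ratio ran from -1.45 through a median of -1.25 to -1.14 in 6 early tumors and from -1.24 through -0.85 to -0.52 in 15 late ones. All 6 early tumors lay below the late median and the ranges overlapped only between -1.24 and -1.14. The difference was -0.40 with an SE of 0.09, 1.32-fold lower (limma, adjusted p = 0.00674). A dimmer second Rxrg probe, measured on all 24 arrays, gave -1.38 with an SE of 0.35 (limma, unadjusted p = 0.000487), the same direction at a much larger size.

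Rxra, the widely expressed RXR (probe at chr2:27615316-27615375, mm9), ran from -1.18 through -0.90 to -0.27 in 6 early tumors and from -0.86 through -0.50 to 0.19 in 18 late tumors. Only 1 early tumor was above the late median. The difference was -0.43 with an SE of 0.14 (limma, adjusted p = 0.0411). Nr1h3 encodes LXR alpha, which is prominent in macrophages, liver and fat. Its values ran from -1.44 through -0.81 to -0.35 in early tumors and from -1.04 through -0.40 to 0.55 in 16 late tumors, with a difference of -0.43 that did not pass (adjusted p = 0.0885, limma). Nr1h2, encoding the widely expressed LXR beta, differed by -0.22, and Rxrb by 0.25, neither passing.

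Over the 22 tumors in which it was measured, Nr1h3 ran with the mean of the adipocyte markers (r = 0.78, a description). The adipocyte marker mean ran from -3.38 through -2.93 to -2.34 in early and from -4.10 through -2.25 to 0.55 in late tumors. Of the 8 of these markers tested, 1 was called, Pparg, lower in early tumors, against 16.6% of all genes called. Their part in the receptor values was not tested. In tumor RNA of this kind, fewer cells of a type and less RNA per cell cannot be told apart.

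Among the 9 LXR targets, lipoprotein genes and cholesterol transport genes, Mylip was higher in early tumors and Apoc1 was lower. The other 7 were not called, and 16.6% of all genes were. Mylip encodes an E3 ubiquitin ligase, also called IDOL, that LXRs induce and that sends the LDL receptor for degradation. At its probe (chr13:45506979-45507038, mm9), the log2 ratio ran from 1.94 through 2.02 to 2.44 in 6 early tumors and from 0.20 through 1.20 to 2.33 in 18 late tumors. The median of the late tumors lay below all 6 early tumors, and among late tumors HFD Late 1 at 2.33 lay within the early range. The difference was 0.92 with an SE of 0.21 and an interval from 0.49 to 1.36, 1.89-fold higher (limma, adjusted p = 0.00583), and a dimmer second probe gave 0.55 with an SE of 0.17. This was the smallest p of the 31 genes in this comparison. The call held without any 1 tumor. Over 24 tumors the marker mean with the r of largest size was the hepatocyte one, which Mylip ran against (r = -0.36). With group means removed, Mylip ran most strongly against the proliferation mean (r = -0.60), while r with that mean was -0.015 without this step. These values are descriptions. Of the 8 proliferation markers, 7 were called higher in early tumors, where 6.53% of all genes were. Their part in the Mylip difference was not tested.

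Apoc1 encodes an apolipoprotein of very low density and high density particles. It ran from -2.10 through -1.83 to -0.16 in 6 early tumors and from -2.54 through -0.07 to 1.18 in 14 late tumors, whose median was above all 6 early ones. The difference was -1.49 with an SE of 0.47, 2.80-fold lower (probe at chr7:20274831-20274890, mm9; limma, adjusted p = 0.0366). Apoe lies beside Apoc1 on chromosome 7 and encodes the ligand by which remnant particles are taken up. Its values ran from -0.92 through -0.76 to 0.14 in early tumors and from -1.76 through 0.47 to 1.42 in late tumors, again with the late median above all 6 early values, and its difference of -0.82 did not pass (limma, adjusted p = 0.0896). Apoe ran with the adipocyte marker mean over 24 tumors (r = 0.76) and Apoc1 with the basal epithelial marker mean over the 20 tumors in which it was measured (r = 0.72), both as descriptions. The basal marker mean ran from -0.20 to 0.23 in early and from -0.37 to 1.77 in late tumors, and its part in these values was not tested.

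Abca1 and Abcg1, the efflux pumps that are the best known LXR targets, gave differences of 0.004 and -0.41 that did not pass. The sign of the Abca1 difference turned under 8 of the other settings tried. Npc1, which exports cholesterol from lysosomes, ran from -0.34 through 0.04 to 0.50 in 5 early tumors and from -1.43 through -0.61 to 0.26 in 17 late tumors. The late median lay below all 5 early values, but the difference of 0.62 missed the threshold (limma, adjusted p = 0.057). Pltp, which moves phospholipids between lipoproteins, differed by -0.41 and Stard4, a cytosolic sterol carrier, by 0.55, and neither passed. For Stard4 the probe used had an unadjusted p of 0.095 (limma). A dimmer second Stard4 probe gave 0.58 with an SE of 0.16 (limma, unadjusted p = 0.0018), so the result depends on the probe. In the tumor channel this second probe stood well above background on 18 arrays.

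**Figure D3:**
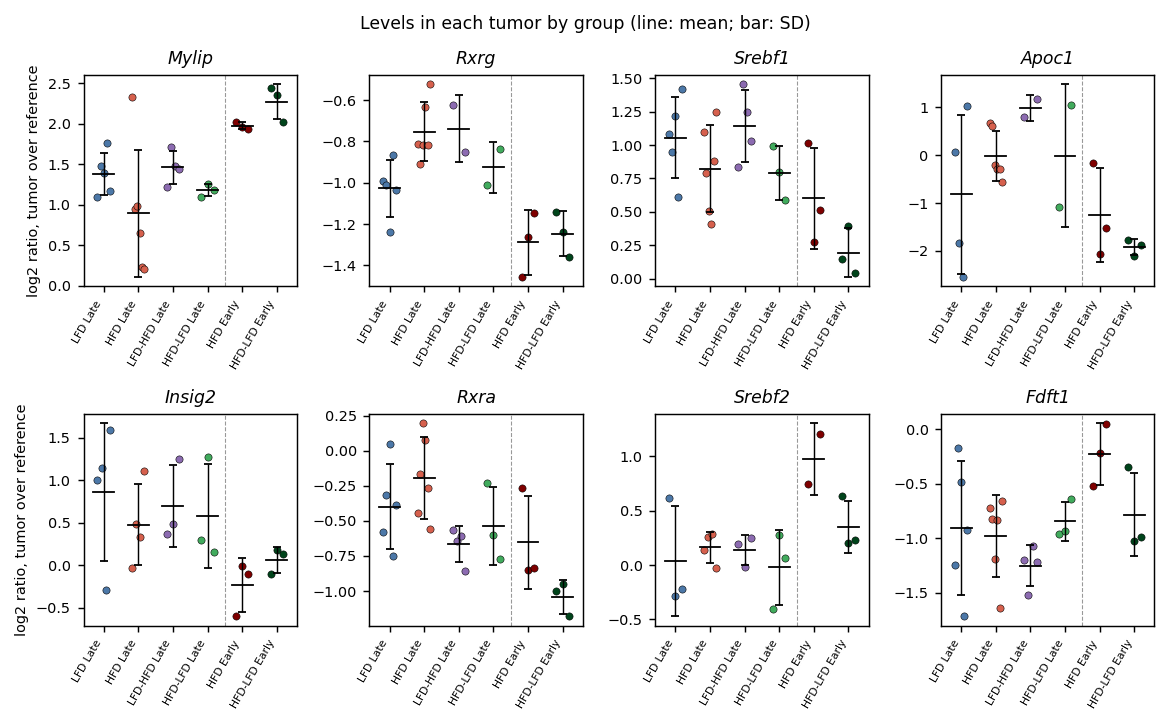
Log2 ratio of tumor over reference in each tumor (points), by diet and onset group, with the group mean (line) and SD (bar). The panels show the genes that passed in early against late tumors and Fdft1, which did not pass. The dashed line sets early groups apart from late. In the Mylip panel all early tumors sit at 1.94 or above.

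Of the 4 sterol control genes, 3 were called, against 16.6% of all genes. Srebf1 encodes SREBP1, which drives fatty acid synthesis and is itself an LXR target. It ran from 0.04 through 0.34 to 1.01 in 6 early tumors and from 0.41 through 0.97 to 1.46 in 18 late tumors, with 1 early tumor above the late median. The difference was -0.55 with an SE of 0.15, 1.47-fold lower (probe at chr11:60012664-60012723, mm9; limma, adjusted p = 0.0133), and the call held without any 1 tumor. Srebf1 ran with the luminal marker mean over 24 tumors (r = 0.67, a description), and that mean ran from -0.01 through 0.38 to 2.20 in early and from -1.60 through 2.64 to 3.13 in late tumors. Of the 9 luminal markers, 3 were called lower in early tumors, where 10.1% of all genes were. Gata3 differed by -2.15 on the log2 scale (limma, adjusted p = 0.000365). The part of the luminal markers in the Srebf1 difference was not tested.

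Srebf2, encoding the SREBP of cholesterol synthesis, ran from 0.20 through 0.63 to 1.21 in 5 early tumors and from -0.40 through 0.14 to 0.62 in 13 late tumors. The late median again lay below all 5 early values. The difference was 0.51 with an SE of 0.17, 1.43-fold higher (probe at chr15:82034765-82034824, mm9; limma, adjusted p = 0.0412). A dimmer second Srebf2 probe, measured on all 24 arrays, gave 0.20 with an SE of 0.14 (limma, unadjusted p = 0.151), so the call rests on 1 of 2 probes. Insig2, which holds SREBP precursors in the endoplasmic reticulum, ran from -0.60 through -0.05 to 0.18 in 6 early tumors and from -0.29 through 0.49 to 1.59 in 14 late tumors. The late median was above all 6 early values, and the difference was -0.74 with an SE of 0.23, 1.67-fold lower (probe at chr1:123201085-123201144, mm9; limma, adjusted p = 0.0371). A dimmer second Insig2 probe, measured on all 24 arrays, gave -0.40 with an SE of 0.24 (limma, unadjusted p = 0.108), so this call also rests on 1 of 2 probes. Insig1, a related protein that SREBPs induce, differed by -0.14 and did not pass.

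The calls differed in how firmly they stood. Mylip, Rxrg and Srebf1 passed without any 1 of the 24 tumors, and these were also the 3 calls that held with slide as a random block, where 8.05% of all genes were called. Slide as a fixed block cannot show how firmly the calls stood. Only 1 slide held both onsets, with 3 early and 1 late tumor. With only HFD and HFD-LFD tumors, the diets that had early tumors, 3 genes were called, against 7.76%. Apoc1 was lost without any 1 of 10 tumors, Rxra of 9, Insig2 of 8 and Srebf2 of 6. The count of 7 rose to 12 without LFD Late 3 and fell to 3 without HFD Early 2 or HFD-LFD Early 1 and to 4 without LFD Late 5, HFD Early 3 or HFD-LFD Early 3. With each array centered on its median in place of loess, the count was 12, with 24.7% of all genes called, and Rxra (-0.23), Rxrg (-0.01), Srebf1 (-0.28), Insig2 (-0.24) and Apoc1 (-1.10) lost the call. Rxrg, at -0.40 with loess, thus all but lost its difference under this normalization (limma, adjusted p = 0.962). The median of all genes then moved from -0.06 to 0.23, and 83.8% of calls were higher in early tumors, against 39.3% otherwise.

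Early and late tumors could also be compared inside a scan session. In session 1, which held 3 HFD Early and 8 late tumors, only Apoa1 was called among the 31 genes, against 6.28% of all genes. In session 2, with 3 HFD-LFD Early and 3 late tumors, 8 were called, against 10.6%. Mylip was 0.72 higher in session 1 and 0.995 higher in session 2, and Srebf1 -0.33 and -0.82. The Rxrg difference was -0.36 and -0.34, that of Rxra -0.46 and -0.56, of Insig2 -0.90 and -0.62, of Apoc1 -1.26 and -2.30, and of Srebf2 0.86 and 0.40. All 7 called genes kept their sign in both sessions, but they were chosen on their difference over these same early tumors. The agreement is thus not an independent test.

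The 13 synthesis genes include most of the path from HMG-CoA to cholesterol. SREBPs work beside NF-Y and Sp1 at the promoters of such genes. Promoters of 4 synthesis genes (RefSeq, GRCm38.p6) are shown. Cyp51, Mvd and Nsdhl had the smallest p of the synthesis genes in early against late tumors after Fdft1, which had no promoter to show. None of these genes was called. Hmgcs1 was added after the motifs were seen, as the only synthesis gene whose promoter held the sterol element. Each run is the 250 bases before the gene start, read 5′ to 3′ on the strand of the gene. Capitals mark the NF-Y box CCAAT, which reads ATTGG on the other strand. They also mark the GC box GGGCGG, which is the reverse complement of CCGCCC, and in Hmgcs1 the sterol regulatory element TCACNCCAC.
Cyp51, chr5:4104698-4104947, minus strand: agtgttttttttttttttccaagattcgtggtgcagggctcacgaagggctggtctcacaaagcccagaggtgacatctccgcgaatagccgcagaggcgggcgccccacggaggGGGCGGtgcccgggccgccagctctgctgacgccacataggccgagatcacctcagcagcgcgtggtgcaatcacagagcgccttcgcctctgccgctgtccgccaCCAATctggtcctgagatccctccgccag
Mvd, chr8:122443423-122443672, minus strand: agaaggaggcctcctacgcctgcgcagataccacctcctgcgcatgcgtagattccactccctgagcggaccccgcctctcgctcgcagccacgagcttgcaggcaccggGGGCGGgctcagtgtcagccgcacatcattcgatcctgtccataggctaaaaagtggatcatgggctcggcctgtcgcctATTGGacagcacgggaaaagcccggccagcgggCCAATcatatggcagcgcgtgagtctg
Nsdhl, chrX:72918271-72918520, plus strand: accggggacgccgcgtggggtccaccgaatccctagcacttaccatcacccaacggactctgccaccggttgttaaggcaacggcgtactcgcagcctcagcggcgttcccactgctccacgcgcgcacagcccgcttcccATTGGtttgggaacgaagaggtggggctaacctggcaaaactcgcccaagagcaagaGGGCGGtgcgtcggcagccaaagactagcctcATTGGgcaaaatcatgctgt
Hmgcs1, chr13:119690101-119690350, plus strand: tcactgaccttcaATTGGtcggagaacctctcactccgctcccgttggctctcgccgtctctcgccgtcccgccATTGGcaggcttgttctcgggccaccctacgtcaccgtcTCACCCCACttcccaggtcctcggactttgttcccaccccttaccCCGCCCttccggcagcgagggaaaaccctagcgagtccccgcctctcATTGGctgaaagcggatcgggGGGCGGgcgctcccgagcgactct

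A promoter was in the table for 24 of the 31 genes and for 10 of the 13 synthesis genes, Fdft1, Fdps and Sqle being the ones without. Some genes have several starts, and each start counts as a promoter. Within these 250 bases, on either strand, 10 of the 12 promoters of the synthesis genes held CCAAT and 11 held GGGCGG, against 33.8% and 32.7% of all 32851 promoters. The 2 without CCAAT were both starts of Dhcr7, whose other start held both boxes. Of 9 receptor promoters, 1 held CCAAT and 3 held GGGCGG. Of 8 promoters of the sterol control genes, 5 held CCAAT and 6 held GGGCGG, but only 3 held both, and no start of Insig2 did. The sterol element occurred in 1.05% of all promoters and in 1 of the 36 of these genes, that of Hmgcs1, 137 bases before the start. The LXR element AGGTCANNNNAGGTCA was found in 0.0152% of all promoters and in none of the 36. These are matches of letters in a window and not measurements of binding.

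None of the 13 synthesis genes passed in early against late tumors, but all 13 had differences above 0, where 43.3% of all genes did. Their median difference was 0.35. Fdft1, squalene synthase, which commits the path to sterols, came nearest. It ran from -1.02 through -0.43 to 0.05 in 6 early tumors and from -1.71 through -0.95 to -0.17 in late ones, with a difference of 0.49 (limma, adjusted p = 0.0719). Cyp51, lanosterol demethylase, differed by 0.44, Mvd, which makes isopentenyl pyrophosphate, by 0.48, and Lss, lanosterol synthase, by 0.40, and none of these passed. Hmgcs1, which makes HMG-CoA, differed by 0.36 and Dhcr7, the last reductase of the path, by 0.25. Sqle, which epoxidizes squalene, and Sc4mol, a sterol methyl oxidase, gave 0.12 and 0.08, the least of the 13.

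The 13 genes varied together over tumors, so their signs are not independent of each other. With group means removed, the median r over the 78 pairs of synthesis genes was 0.674, all 78 pairs were above 0 (0.167 to 0.937) and 63 were above 0.5, while 10.2% of pairs of a synthesis gene with any other gene were above 0.5, with a median of 0.004. In session 1, 11 of the 13 differences were above 0, where the median of all genes was -0.08. The exceptions were Mvk and Sc4mol at -0.30 and -0.34. In session 2 all 13 were above 0, where the median of all genes was -0.04. There 4 of the 13 were called, against 10.6% of all genes. These were Hmgcs1 at 0.96, Idi1 at 1.04, Mvk at 0.94 and Fdps at 0.69 (limma within the session, adjusted p = 0.007, 0.033, 0.029 and 0.044). With array median centering, 7 of the 13 were called, against 24.7% of all genes, and 83.8% of all calls were higher in early tumors. The median of the 13 rose to 0.75, while the median of all genes rose to 0.23.

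The mean log2 ratio over the synthesis genes ran from -0.46 through -0.25 to 0.12 in early tumors and from -1.004 through -0.63 to 0.77 in late tumors, so the highest tumor was a late one. HFD Late 4, at 0.77, was highest of all tumors for 6 of the 13 genes and among the top 2 for 9, and HFD-LFD Late 3, at 0.41 over 10 measured genes, was among the top 2 for 6. These tumors also had the highest squamous differentiation marker means of all tumors, 3.63 and 1.86, in a list of 10 genes such as Krt1 and Lor that ran from -2.46 to 0.51 in early and from -4.57 to 3.63 in late tumors. Over all 24 tumors the synthesis mean ran with the squamous mean (r = 0.857, rho = 0.751), still at 0.716 without HFD Late 4 and HFD-LFD Late 3, at 0.726 in early and 0.852 in late tumors, and at 0.824 to 0.914 within the 3 sessions. It ran against the luminal mean (r = -0.731) and less closely with proliferation markers (r = 0.271). The points share arrays and slides, and these correlations are descriptions. None of the 10 squamous genes was called in early against late tumors, 10 of 10 differences were above 0, and no gene of the list was at background on all arrays. What part the squamous markers have in the synthesis levels was not tested.

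**Figure D4:**
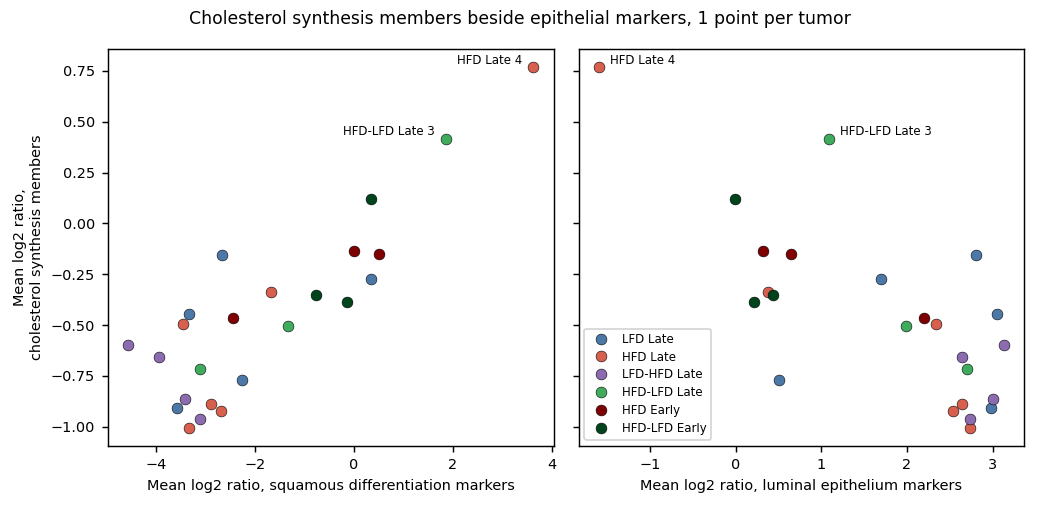
Mean log2 ratio of the synthesis genes (vertical) against the mean of the squamous and of the luminal markers (horizontal), 1 point per tumor in colors for group. HFD Late 4 is the point at 0.77 on the vertical and 3.63 on the squamous axis.

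The other genes of these pathways, counted from lists written by hand, gave the following in early against late tumors, where 16.6% of all genes were called. Of 9 tested genes in other steps of cholesterol synthesis, 2 were called and both were higher, Lbr, a sterol reductase that also sits in the nuclear envelope, by 0.85 (limma, adjusted p = 0.0032) and Acat2, the first step of the path, by 0.39 (limma, adjusted p = 0.049). Of 12 in SREBP control and uptake, 1 was called, Lrp8, a receptor of the LDL receptor family, higher by 0.68. Of 9 other LXR targets, Arl4c was higher by 0.66 and Lcat, which esterifies cholesterol on lipoproteins, was lower by -0.49. Of 14 in fatty acid synthesis, 3 were called, Fads2, a desaturase, being higher by 1.55 and Me1, which makes NADPH, lower by -0.93, and of 9 in ester and oxysterol handling none was. Of 11 other apolipoprotein genes, 3 were called and all were lower, with no difference above 0. Apob was lower by -0.90 and Apoc2 by -0.56. In the tumor channel Lcat was well above background on 20 of the 24 arrays, Apob on 21 and Lbr on 23, so their differences include arrays near background.

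Early and late tumors were next compared within each diet that had both. In neither HFD nor HFD-LFD did an early tumor share a slide with a late one. Onset and slide therefore cannot be told apart within either diet. Within HFD, 12.4% of genes were called and 3 of the 31 passed, Mylip higher and Apoa1 and Rxrg lower. Apoa1 encodes the main protein of high density lipoprotein. It stood at -6.87, -6.94 and -5.94 in the 3 HFD Early tumors and ran from -5.69 through -5.39 to -5.28 in the 6 HFD Late tumors. The 3 HFD Early tumors were lower than all of the other tumors, whose lowest was -5.91 in an LFD Late tumor. The share of all genes that separated in this way was not counted. The difference was -1.16 with an SE of 0.17 (probe at chr9:46037921-46037980, mm9; limma, adjusted p = 0.000912).

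Other apolipoproteins were lower with Apoa1 in the HFD Early tumors. Of 11 such genes, 8 were called within HFD and all 8 were lower, where 6.93% of all genes were called lower. They were led by Apoc2, a cofactor of lipoprotein lipase, at -0.87 and Apoh, a plasma glycoprotein, at -1.48 (limma, adjusted p = 0.00193 and 0.00197). The mean of the 7 hepatocyte markers, which include Apoh, stood at -6.23 to -5.38 in HFD Early and at -5.04 to -4.40 in HFD Late tumors and ran with Apoa1 over 24 tumors (r = 0.73, a description). Its part in the Apoa1 difference was not tested. In the tumor channel Apoa1 and Apoc2 stood well above background on every array and Apoh on 23.

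Rxrg stood at -1.45, -1.26 and -1.15 in the 3 HFD Early tumors and ran from -0.91 through -0.81 to -0.52 in the 6 HFD Late tumors. The difference was -0.54 with an SE of 0.12 (limma, adjusted p = 0.00879). Mylip stood at 2.02, 1.96 and 1.94 in HFD Early and ran from 0.20 through 0.80 to 2.33 in HFD Late tumors, so the groups overlapped through HFD Late 1. The difference was 1.08 with an SE of 0.30 (limma, adjusted p = 0.0250). Srebf2 at 0.81, Fdft1 at 0.75 and Dhcr7 at 0.81 were the next differences among Srebf2 and the synthesis genes, and none passed. Of the 13 synthesis genes, 11 were above 0 within HFD, against 41.7% of all genes, with a median of 0.13. The median was 0.49 without HFD Late 4 and 0.24 without HFD Early 1, and it was 0.0289 without HFD Late 2 and 0.0715 without HFD Late 3, each with 8 of 13 above 0. It was 0.0768 without HFD Early 2. The count of 3 was 1 without HFD Early 1 and 5 without LFD Late 2 or LFD Late 4.

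Within HFD-LFD, 0.883% of genes were called and none of the 31 was, with 6 at an unadjusted p under 0.05 against 15.2% of all genes. Mylip again had the smallest p. It stood at 2.44, 2.35 and 2.02 in HFD-LFD Early and at 1.0998, 1.25 and 1.18 in HFD-LFD Late tumors. The Mylip difference was 1.09 with an SE of 0.35 (limma, adjusted p = 0.135). It passed without HFD Late 1, which brought the count to 1, and also with median centering and with array weights. Apoc1 differed by -1.90, Srebf1 by -0.60, Nr1h2 by -0.41 and Rxrg by -0.32, and none passed. Of the synthesis genes, 9 of 13 were above 0, against 44.1% of all genes, with a median of 0.11. This direction rested on single tumors: 6 of 13 were above 0 without HFD-LFD Late 2 (median -0.14) or HFD-LFD Early 1 (median -0.0235). The median was 0.34 without HFD-LFD Late 3 and 0.18 without HFD-LFD Early 2.

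**Figure D5:**
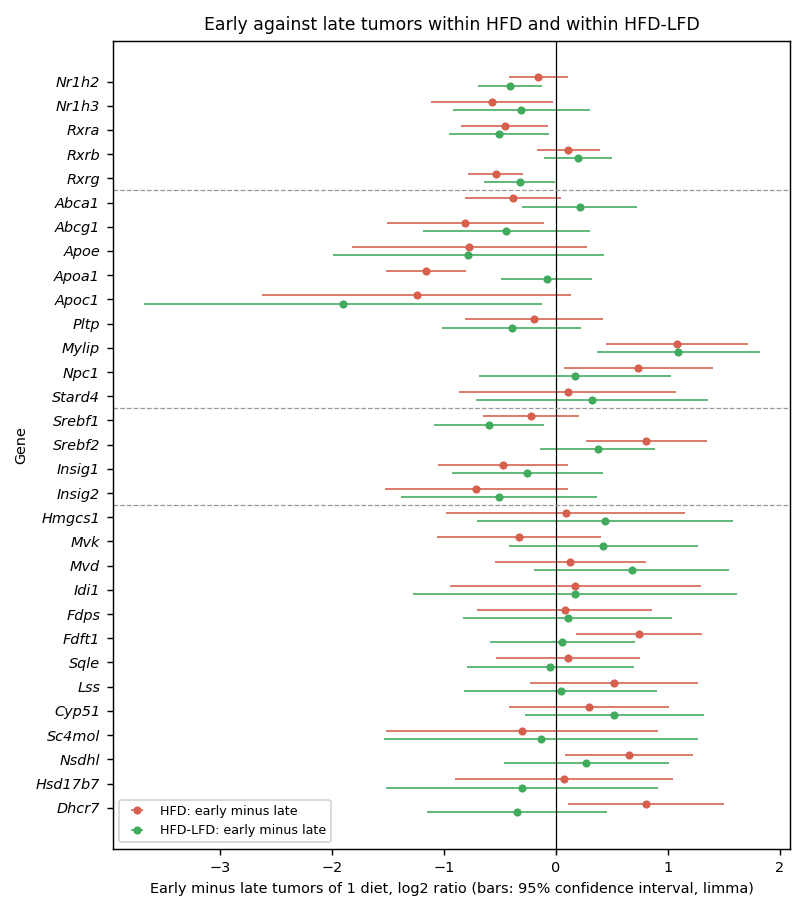
Early minus late difference of the 31 genes within HFD and within HFD-LFD, in log2 units, with 95% confidence intervals from limma. Mylip lies near 1 in both diets, while Apoa1 lies at -1.16 within HFD and near 0 within HFD-LFD.

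The difference between the onset changes of the diets was tested directly. It was called for 0.00965% of genes and for none of the 31, of which 2 had an unadjusted p under 0.05 against 8.02% of all genes. Apoa1 stood at -5.22, -5.04 and -5.35 in HFD-LFD Early and at -5.07, -5.03 and -5.25 in HFD-LFD Late tumors. Its change within HFD was -1.08 log2 units further down than within HFD-LFD, with an SE of 0.26 and an interval from -1.62 to -0.54 (limma, adjusted p = 0.334). It passed without HFD Early 3, which brought the count to 1. Dhcr7 was the other of these, at 1.15 (limma, adjusted p = 0.606). It stood at 0.37, 0.39 and 0.95 in HFD Early and at -0.78, -1.25 and -0.95 in HFD-LFD Early tumors. These early groups were read in sessions 1 and 2, and the late tumors of those sessions had Dhcr7 means of 0.0132 and -1.10, so diet and session cannot be told apart in these levels.

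Diet was compared directly between 9 HFD and 5 LFD tumors. The HFD tumors included 3 early ones, while all 5 LFD tumors were late, so onset is mixed into this comparison. By limma 0% of genes were called and 5.11% had an unadjusted p under 0.05, and of the 31 genes none was called and 1 had an unadjusted p under 0.05. This was Abca1, at 0.49 higher in HFD tumors (limma, adjusted p = 0.921). It stood at a mean of 0.44 with an SD of 0.20 in 4 LFD tumors, 0.71 with an SD of 0.32 in 3 HFD Early and 1.09 with an SD of 0.27 in 4 HFD Late tumors. The tumors measured in each of these groups filled a slide of their own, so diet and slide cannot be told apart for Abca1.

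Over the 4 diets of the late tumors, an F-test called 2.15% of genes and 1 of the 31, Dhcr7 (limma, adjusted p = 0.0458), with 5 at an unadjusted p under 0.05 against 20.1%. Dhcr7, 7-dehydrocholesterol reductase, stood at -0.41, 0.44, 1.23 and -0.28 in 4 measured LFD tumors and at -1.45, -1.03, -1.69 and -1.27 in the 4 LFD-HFD tumors. The 6 HFD Late tumors ran from -0.75 through -0.52 to 0.76 and the 3 HFD-LFD Late tumors stood at -0.66, -0.96 and -0.32. The LFD-HFD tumors were -1.61 log2 units below the LFD tumors, with an SE of 0.33 (limma, adjusted p = 0.0198), a contrast in which 1.91% of genes were called. The measured LFD tumors and the LFD-HFD tumors shared no scan session, so diet and session cannot be told apart there. The call was lost without any 1 of 17 tumors, and it was lost under 9 of the other settings.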

How the data were processed

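RNA of 24 mammary tumors was measured on Agilent 2-color arrays. The intensity columns the authors deposited hold the mean of each spot and the median of its surroundings in Cy5 and Cy3, not yet normalized for dye, and an intensity from which the software had subtracted background. The deposited log10 values are ratios of Cy5 to Cy3, background-subtracted and dye-normalized by Agilent Feature Extraction, version 11.0.1.1 per the file headers and 8.5.1.1 per the submitters' processing notes. Probe positions are on mm9, and no mm9 annotation was used here, so exon and UTR status of probes is not given.

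Intensities were corrected by normexp with an offset of 50 and normalized by loess (span 0.3) within arrays in R 4.3.3 with limma 3.58.1. Spots with outlier flags and dimmed Cy5 rows on 2 slides (7 arrays) were left missing, where the study imputed missing values. Probes over a background-subtracted signal of 10 in both channels on at least 80% of measured arrays were kept, 27314 of 39429, and 1 probe, the brightest on average, represented each of 20983 genes. The 31 genes had 44 probes, 12 genes had several, and the probes of these 12 shared the sign of their early minus late difference. All 31 matched RefSeq by accession.

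Groups came from the diet and onset labels. Each comparison was a limma fit with Benjamini-Hochberg adjustment over all genes, and a gene was called at an adjusted p under 0.05. Values by tumor are given for called genes and the next smallest p up to 12 genes in all, and for genes called in another comparison. From other pathway lists at most the 2 called genes with the smallest p are named. The members, lists and tests were chosen with earlier results of these data known. Alternatives were other background corrections and normalizations, filters, probe summaries, array weights, a variance trend, slide and session blocks, subsets of tumors and each tumor left out. The script was tested on simulated data. In Cy5, 66.1% to 89.2% of spots on an array stood well above background, and the number of arrays limits precision.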

Additional observations from a re-analysis of the deposited data

Results flagged for a closer look

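Of 76 sets of 4 to 6 values of 1 gene in 1 group, 6 held a tumor set apart from the rest of its group. Chance alone flags about 1 in 20, but the sets are not independent, since the synthesis genes varied together. Groups of 3 tumors were too small to be examined. Among the synthesis genes, HFD Late 4 was the high tumor for Mvk, at 0.366 against -0.886 for the nearest of 6, for Cyp51, at 1.29 against -0.309 for the nearest of 5, and for Sc4mol, at 2.61 against -0.144 for the nearest of 6. This was also the tumor with the highest squamous marker mean, at 3.63. LFD Late 3 was the low tumor for Cyp51, at -0.713 against -0.224 for the nearest of 5, and for Pltp, at 0.0416 against 1.23 for the nearest of 4. Mylip was highest in HFD Late 1, at 2.33 against 0.987 for the nearest of 6.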

How the results depend on the processing

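No paired analysis was possible because replicate numbers were given in accession order and no label pairs tumors between groups. Of the 31 genes, 7 were called in early against late tumors, and settings not named here left each count below within 1.5 times. Brackets give the share of all genes called, which was 16.6% as reported and moved with the settings. The count was 12 with median centering (24.7%), 4 with dimmed rows kept (10.4%) and 19 with array weights (30.1%). It was 3 with slide as a random block (8.05%). No count is given with slide as a fixed block, where only 1 slide held both onsets, with 3 early and 1 late tumor. The count was 1 within session 1 (6.28%) and 3 with only HFD and HFD-LFD tumors (7.76%). With each tumor left out it was 3 to 12 (9.14% to 20.6%). Within HFD it was 3 as reported (12.4%), 6 with normexp fitted on all spots (14.5%) and 7 with median centering (16.5%). It was 1 there with the mean over probes (11.4%), 18 with array weights (38.6%), and 1 to 5 with each tumor left out (4.6% to 16.9%). Within HFD-LFD it was 0 as reported (0.883%), 1 with median centering (1.7%), 4 with array weights (9.79%), and 0 to 1 with each tumor left out (0.0923% to 1.46%). For the difference of onset changes it was 0 (0.00965%), 2 with array weights (1.61%) and 0 to 1 with each tumor left out (0% to 0.0726%). For HFD against LFD it was 0 in every setting run, 0 to 0 with each tumor left out. For the late diets it was 1 as reported (2.15%), 3 with array weights (27.3%) and 0 to 2 with each tumor left out (0.711% to 4.49%). It was 0 with normexp on all spots (0.536%), median centering (1.87%), dimmed rows kept (0.406%), imputation (2.78%) or no signal filter (1.52%). It was also 0 with the mean over probes (1.65%), slide as a random block (0.236%), session as a block (0.00701%) or the slides with dimmed rows left out (0.743%). The cause of these changes was not tested.

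Signs turned in early against late tumors for Nr1h2 (0.26), Abcg1 (0.0848), Pltp (0.0606) and Insig1 (0.0915) with median centering, and for Nr1h2 (0.91), Abca1 (-0.0275) and Abcg1 (0.37) with dimmed rows kept. Abca1 also turned with imputation (-0.0436), array weights (-0.0259), slide as a random block (-0.00685), session as a block (-0.00251), the slides with dimmed rows left out (-0.00592), session 1 (-0.0553) and HFD and HFD-LFD tumors only (-0.13). Mvk turned in session 1 (-0.30), and Sc4mol in session 1 (-0.34) and with HFD and HFD-LFD tumors only (-0.11). With each tumor left out, Abca1 ran from -0.0936 to 0.0807 and Sc4mol from -0.0488, without HFD-LFD Early 1, to 0.274. Of the 744 results with a tumor left out, 684 kept their sign and side of the threshold, 33 lost a call, 16 gained one and 11 turned.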
